A study of Mus musculus with 10 samples.

Results

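The genes examined here make cholesterol and fatty acids from acetyl-CoA, together with the SREBP transcription factors that control them, and they were compared between control 4T1 tumors and 4T1 tumors targeted at Wwtr1, which encodes TAZ. The 40 genes were taken by name from a list of mevalonate, sterol and fatty acid synthesis genes and their regulators, a rule that uses no measured value, and all 40 were found among the 17864 genes of the table. They comprise 8 genes of the mevalonate steps, 11 of the steps from squalene to cholesterol, 6 of sterol sensing and transport, 6 of the steps from acetyl-CoA to palmitate, 7 of desaturation and elongation, and 2 of sterol efflux. RNA was taken from whole tumors of 4T1, a mouse triple-negative mammary carcinoma line that carried Cas9, of which 5 carried a control guide RNA (sgCon) and 5 a guide RNA to Wwtr1 (sgTaz). For its tumor experiments the study placed 100000 cells in mammary fat pad 4 of female mice aged 6 to 8 weeks, either BALB/c or SCID, and which host the sequenced tumors came from is not given in the sources used here. Cas9 acted in the injected cells and not in the host cells of the tumor, so any Wwtr1 RNA of host cells remained in the sgTaz tumors. The sources also do not say whether each tumor came from a separate mouse, and all p-values measure the spread between these 10 tumors. Because whole tumors were sequenced, fewer cells of a type and less RNA per cell cannot be told apart.

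Cholesterol synthesis starts with acetyl-CoA, passes through mevalonate and the isoprenoids, and reaches squalene, which is closed into a ring and trimmed to cholesterol. Fatty acid synthesis uses the same acetyl-CoA, carboxylated to malonyl-CoA, to build palmitate, which is then elongated and desaturated. When sterols in the endoplasmic reticulum are low, Scap carries the SREBP precursors to the Golgi for cleavage and the released factors enter the nucleus, where SREBP-2 (Srebf2) acts mostly on sterol genes and SREBP-1 (Srebf1) mostly on fatty acid genes. The Insig proteins hold Scap back when sterols are plentiful. Both routes feed the membranes of dividing tumor cells, and fat cells of the mammary fat pad express the fatty acid route strongly.

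Values are given as CPM, the counts of a gene scaled to the total of the tumor after TMM normalization, and log2 fold changes are sgTaz over sgCon from the quasi-likelihood test of edgeR, adjusted over the 14816 genes tested. Total counts ran from 14753922 to 19595821 in the sgCon group and from 12185383 to 18395558 in the sgTaz group. Wwtr1 was at 192, 181, 115, 171 and 156 CPM in sgCon tumors 1 to 5 and at 86.6, 104, 109.9, 139 and 102 CPM in sgTaz tumors 1 to 5. The highest sgTaz tumor stood above the lowest sgCon tumor, so the groups overlapped, and the log2 fold change of Wwtr1 was -0.59 ± 0.15 (SE) with an adjusted p of 0.096. By the exact permutation test of its log2 CPM the difference had a p of 0.0159, where the smallest p that 5 against 5 tumors allow is 0.00794. The 9 epithelial markers, which are those of 4T1 cells, summed to 2131 to 5085 CPM in sgCon and 1627 to 3962 CPM in sgTaz tumors, with a difference of -0.61 in mean log2 CPM and an adjusted p of 0.254 in the exact permutation test over 8 marker lists.

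Markers of cells other than tumor cells varied between tumors, and no list of them passed an adjusted p below 0.05 between groups. Of the 6 markers listed for lymph node stroma, 4 passed the filter, namely Ccl19, Glycam1, Cr2 and Fcer2a. Cr2 and Fcer2a are also B cell genes, so this list and that of B cells are not separate measures. The mean log2 CPM of the 4 was 2.40 to 6.60 in sgCon tumors and -3.01 to -1.24 in sgTaz tumors 1 to 4. In sgTaz tumor 5 it stood apart at 5.19. The groups differed by -5.21, with an adjusted p of 0.106 in that exact permutation test. Adipocyte markers (6 of 8 passed the filter, while Adig and Lep did not) summed to 39.99, 43.9, 6.30, 11.3 and 27.8 CPM in sgCon tumors 1 to 5 and to 3.76, 6.46, 109.6, 104 and 123 CPM in sgTaz tumors 1 to 5. The sgTaz tumors therefore fell into a pair with few adipocyte transcripts and 3 tumors with more of them than any sgCon tumor. Mean adipocyte level differed by 0.60 on the log2 scale, with an adjusted p of 0.783 in the same exact permutation test. Macrophage markers were higher by 0.60 in log2 CPM in sgTaz tumors, and B cell markers differed by -4.23, both at an adjusted p of 0.106 by that exact permutation test.

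The enzymes of sterol synthesis and those of fatty acid synthesis had median fold changes of opposite sign. Of the 19 enzymes of the mevalonate steps and the steps to cholesterol, 16 had a negative log2 fold change, with a median of -0.20. Of the 13 enzymes of fatty acid synthesis, desaturation and elongation, 11 had a positive one, with a median of 0.13. Of the 14816 genes tested, 7855 had a negative log2 fold change and 6961 a positive one. The median over all genes tested was -0.019, and it was -0.021 over the 40 genes.

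No gene of the 40 passed an adjusted p below 0.05 with edgeR, where 1 gene of 14816 (0.00675%) did. At an unadjusted p below 0.05, 7 of the 40 were lower in sgTaz tumors (Mvd, Pmvk, Fdft1, Cyp51, Msmo1, Ebp and Srebf2), beside 11.9% of all genes tested. In the other direction 2 of the 40 were higher (Acss2 and Acaca), beside 9.86% of all genes. Over all genes tested, 1461 were higher and 1765 lower at that threshold, and 1825 were higher and 1233 lower with offsets for GC content and length, under which 2 of the 40 were higher and 4 lower. The groups did not overlap for 2 genes that were lower (Mvd and Pmvk), beside 2.13% of all genes, and for 0 genes that were higher, beside 2.44%. With DESeq2, Mvd passed the adjusted threshold, beside 3.5% of genes called lower and 3.38% called higher. With limma-voom and sample quality weights, Mvd, Pmvk, Cyp51, Msmo1 and Ebp passed it as lower and Acss2 as higher, beside 5.8% and 4.63% of all genes.

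**Figure D1:**
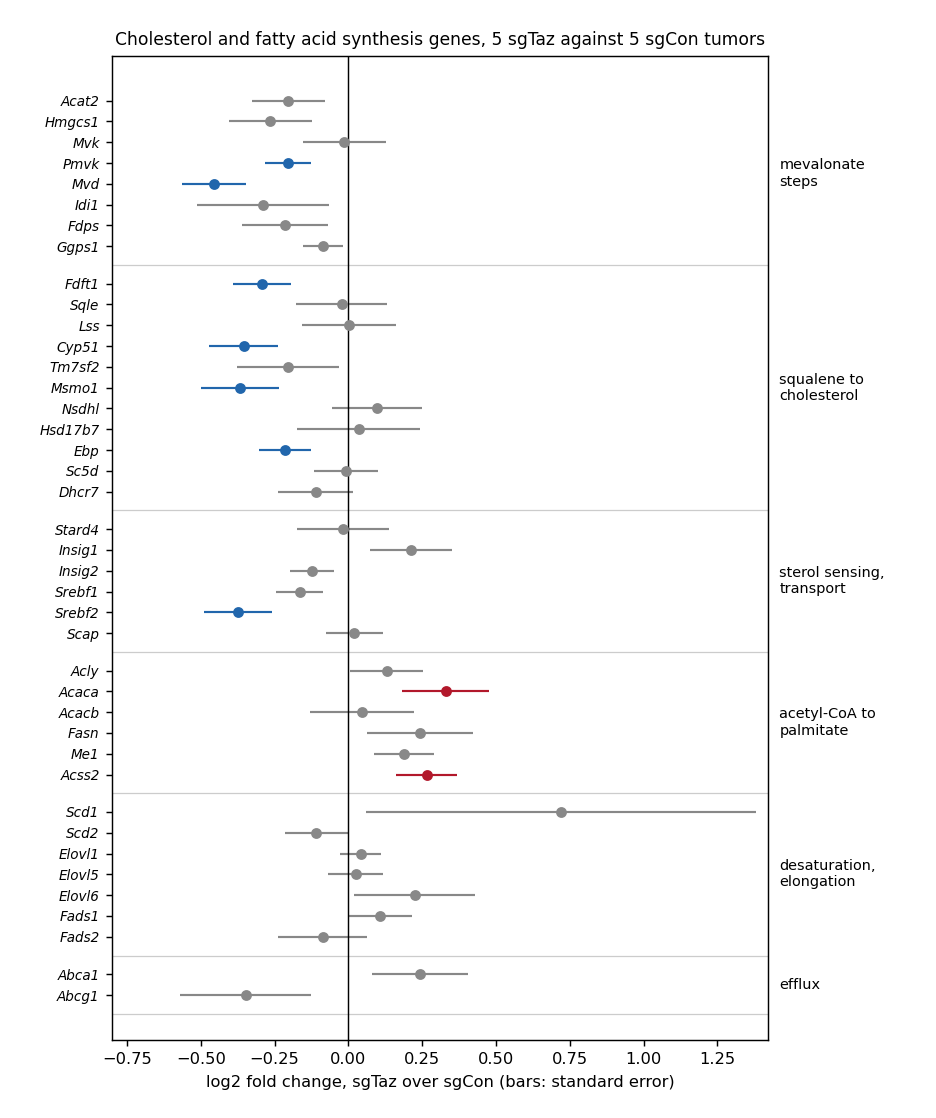
Log2 fold change of each of the 40 genes in sgTaz over sgCon tumors from edgeR, with bars for the standard error and the genes grouped by role from top to bottom. The 7 blue points lie below 0 and the 2 red points above 0 with an unadjusted p below 0.05, and grey points do not reach it.

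All 8 genes of the mevalonate steps had a negative log2 fold change, between -0.45 and -0.013, with a median of -0.21. Mvd (ENSMUSG00000006517.5) encodes mevalonate diphosphate decarboxylase, which makes isopentenyl diphosphate, the building block of all isoprenoids. In mm10 it spans 122433601 to 122443422 of chromosome 8, minus strand. Mvd was at 16.2, 15.3, 16.5, 13.3 and 17.5 CPM in sgCon tumors 1 to 5 and at 12.6, 11.4, 12.0, 11.0 and 10.4 CPM in sgTaz tumors 1 to 5. Every sgTaz tumor was below every sgCon tumor. The means were 15.8 ± 1.57 CPM (SD, n = 5) for sgCon and 11.5 ± 0.853 CPM (SD, n = 5) for sgTaz. Its log2 fold change was -0.45 ± 0.11 (SE), a level 0.730 times that of sgCon tumors. Its adjusted p was 0.096 with edgeR, 0.0112 with DESeq2 and 0.0269 with limma-voom. In log2 fold change Mvd stayed between -0.51 and -0.42 whichever tumor was left out, and it was -0.32 with offsets for GC content and length.

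Pmvk (ENSMUSG00000027952.16), phosphomevalonate kinase, adds the phosphate just before the step of Mvd, and spans 89454541 to 89469013 of chromosome 3, plus strand. It was at 23.8, 26.3, 23.5, 25.1 and 26.2 CPM in sgCon tumors 1 to 5 and at 23.1, 21.4, 21.5, 20.4 and 21.8 CPM in sgTaz tumors 1 to 5. The groups did not overlap, though sgTaz tumor 1 came close to the lowest sgCon tumor. In log2 fold change Pmvk was at -0.21 ± 0.08 (SE), with an adjusted p of 0.167 with edgeR and 0.0447 with limma-voom. With offsets for GC content and length it was -0.056, with an adjusted p of 0.739 by edgeR.

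Hmgcs1, the cytosolic HMG-CoA synthase that precedes the rate-limiting step, was at 155, 108, 83.2, 95.1 and 117 CPM in sgCon tumors 1 to 5. In sgTaz tumors 1 to 5 it was at 91.6, 93.7, 98.8, 95.1 and 85.0 CPM. Tumor 1 of the sgCon group was far above the rest, and all 5 sgTaz tumors lay within the range of the sgCon tumors. Hmgcs1 had a log2 fold change of -0.26 ± 0.14 (SE), with an adjusted p of 0.297, and it was -0.12 without sgCon tumor 1. Acat2, which joins acetyl-CoA units, had a log2 fold change of -0.20, Idi1, the isomerase that follows Mvd, of -0.29, and Fdps, which makes farnesyl diphosphate, of -0.21. For Mvk, mevalonate kinase, it was -0.013, and for Ggps1, which makes geranylgeranyl diphosphate, -0.087. None of these 5 had an unadjusted p below 0.05. The exons of Fdps share 1124 bases, or 26.7% of their length, with another gene model on the same strand (Gm43738), so its counts are uncertain.

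Among the 11 enzymes from squalene to cholesterol, 8 had a negative log2 fold change, with a median of -0.11 and a range from -0.37 to 0.097. Fdft1 (ENSMUSG00000021273.11; chromosome 14, minus strand, 63145150 to 63179578), squalene synthase, commits farnesyl diphosphate to sterols. It was at 82.4, 63.3, 66.2, 70.8 and 78.3 CPM in sgCon tumors 1 to 5 and at 66.7, 62.6, 58.7, 56.7 and 50.0 CPM in sgTaz tumors 1 to 5. Only sgTaz tumor 1 reached into the range of the sgCon tumors. For Fdft1 the log2 fold change was -0.29 ± 0.10 (SE), with an adjusted p of 0.140 with edgeR, and -0.21 with an unadjusted p of 0.0987 under the offsets for GC content and length. Fdft1 shares 774 exon bases (18.3%) with Ctsb, a cathepsin gene on the opposite strand, and whether the counting used the strand is not given in the sources used here.

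Cyp51 (ENSMUSG00000001467.5; chromosome 5, minus strand, 4081145 to 4104746) removes a methyl group from lanosterol. It was at 91.1, 72.5, 60.1, 61.4 and 75.7 CPM in sgCon tumors 1 to 5 and at 63.7, 55.6, 58.3, 54.0 and 50.5 CPM in sgTaz tumors 1 to 5. Of the sgTaz tumors, 4 were below the lowest sgCon tumor. Its log2 fold change was -0.35 ± 0.12 (SE), with an adjusted p of 0.134 with edgeR and 0.0307 with limma-voom.

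Msmo1 (ENSMUSG00000031604.10; chromosome 8, minus strand, 64718139 to 64733792) oxidizes further methyl groups of the sterol ring. It was at 66.4, 49.2, 41.9, 41.7 and 60.7 CPM in sgCon tumors 1 to 5, and at 42.3, 38.0, 41.2, 40.6 and 39.3 CPM in sgTaz tumors 1 to 5. Tumors 1 and 5 of the sgCon group were high, while sgCon tumors 3 and 4 were at the level of the sgTaz tumors. Msmo1 had a log2 fold change of -0.37 ± 0.13 (SE), with an adjusted p of 0.153 with edgeR and 0.0433 with limma-voom.

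Ebp (ENSMUSG00000031168.14; chromosome X, minus strand, 8185329 to 8193512), the isomerase that moves the double bond of the sterol ring, was at 45.7, 44.7, 49.0, 47.2 and 50.3 CPM in sgCon tumors 1 to 5. In sgTaz tumors 1 to 5 it was at 40.1, 49.5, 37.3, 38.5 and 38.6 CPM. All sgTaz tumors were below the sgCon tumors except sgTaz tumor 2, which was near the highest of them. For Ebp it was -0.21 ± 0.09 (SE) in log2 fold change, with an adjusted p of 0.195 with edgeR and 0.0440 with limma-voom. It was -0.29 without sgTaz tumor 2, and -0.13 with offsets for GC content and length, where its unadjusted p was 0.174 by edgeR.

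Sqle, squalene epoxidase, the enzyme that brings oxygen into squalene, had a fold change near 0. It was at 87.0, 64.2, 50.4, 53.1 and 57.5 CPM in sgCon tumors 1 to 5 and at 71.3, 50.8, 68.6, 62.3 and 54.1 CPM in sgTaz tumors 1 to 5, with every sgTaz tumor inside the range of the sgCon tumors. Its log2 fold change was -0.023 ± 0.15 (SE), its sign turned when sgCon tumor 1 was left out (0.13), and the adjusted p was 0.945. Lss, which closes the ring, was at 0.0019, Hsd17b7 at 0.035, Nsdhl at 0.097 and Sc5d at -0.0096 in log2 fold change, all with adjusted p-values above 0.7. Dhcr7, which makes cholesterol in the last step of the Kandutsch-Russell branch, had a log2 fold change of -0.11, and Tm7sf2, a sterol reductase that shares 12.1% of its exon bases with Vps51 on the same strand, of -0.20.

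**Figure D2:**
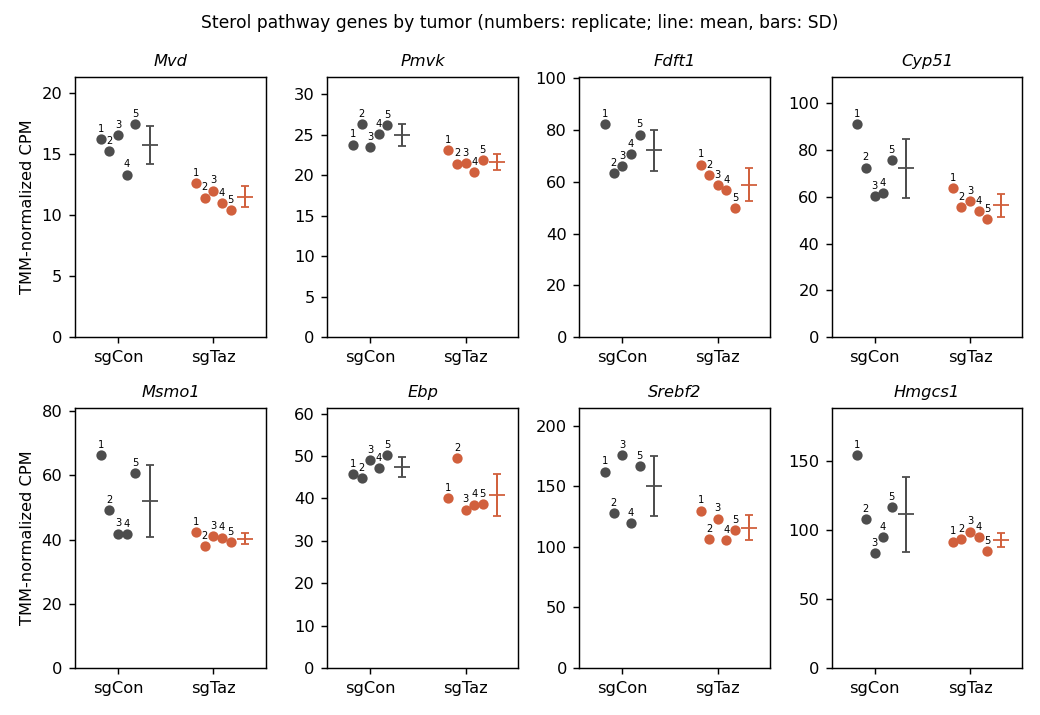
CPM of 8 genes of the sterol route in each tumor, with sgCon tumors in grey and sgTaz tumors in orange, replicate numbers above the points, and the mean with its SD beside each group. For Mvd and Pmvk the groups do not overlap, and in Fdft1, Cyp51, Msmo1 and Hmgcs1 sgCon tumor 1 is the highest of the 10 tumors.

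Leaving out each tumor in turn, Mvd, Fdft1, Cyp51, Msmo1 and Srebf2 had an unadjusted p below 0.05 in all 10 fits, Pmvk in 7 and Ebp in 4. Tumor 1 of the sgCon group was the highest of the 10 tumors in 13 of the 19 enzymes. It also had the highest sum of epithelial markers, 5085 CPM. Without it, 13 of the 19 enzymes had a negative log2 fold change, with a median of -0.10. Without sgTaz tumor 5, which stood apart in lymph node markers, 15 of 19 did, with a median of -0.19. With the epithelial marker level as a covariate, 14 of 19 did, with a median of -0.082, and of the 6 enzymes with an unadjusted p below 0.05, only Mvd (-0.47) and Pmvk (-0.22) remained below it. Fdft1 (-0.23), Cyp51 (-0.27), Msmo1 (-0.25) and Ebp (-0.16) did not, with unadjusted p-values of 0.0631, 0.0666, 0.116 and 0.117 by edgeR.

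SREBP-2 acts with the factor NF-Y, which binds the CCAAT box. The stretches before the starts of Mvd, Pmvk, Hmgcs1, Cyp51 and Srebf2, all with a negative log2 fold change, are printed below. RefSeq windows of 250 bases before the start (GRCm38.p6, the mm10 assembly) were found for 32 of the 40 genes. The motifs searched on both strands were CCAAT, the sterol regulatory element TCACNCCAC, and a further motif, ATCACNNCA. The last shares letters with TCACNCCAC but also asks for a leading A, so a match of TCACNCCAC can fail it. It was added after these same windows had been read. CCAAT was in 14 of 16 windows of sterol enzymes (87.5%) and in 5 of 10 windows of fatty acid enzymes (50.0%). It was in 33.8% of 32851 windows of all genes, which were not reduced to 1 per gene as those of the 40 were. Among the windows with CCAAT were those of Mvk, Lss, Hsd17b7 and Nsdhl, with log2 fold changes of -0.013, 0.0019, 0.035 and 0.097. The windows of Acat2 (-0.20) and Dhcr7 (-0.11) were without it. TCACNCCAC was in 1 of the 32 windows, that of Hmgcs1, beside 1.05% of all windows. ATCACNNCA was in 3 of the 32, those of Cyp51, Msmo1 and Srebf2, beside 2.3% of all windows. Capitals mark these motifs on either strand, so that CCAAT on the other strand reads ATTGG. For Cyp51 and Srebf2 only the bases before the GENCODE start of the gene are printed. The CCAAT box counted for Cyp51 begins 29 bases before the RefSeq start, within the 49 bases left out, so the printed stretch does not show it.
Mvd, chr8:122443423-122443672, minus strand: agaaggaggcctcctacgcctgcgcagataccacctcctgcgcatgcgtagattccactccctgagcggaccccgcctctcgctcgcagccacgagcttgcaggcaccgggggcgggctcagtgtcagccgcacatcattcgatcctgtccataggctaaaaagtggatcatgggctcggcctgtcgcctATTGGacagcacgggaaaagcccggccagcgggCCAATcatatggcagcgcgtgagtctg
Pmvk, chr3:89454291-89454540, plus strand: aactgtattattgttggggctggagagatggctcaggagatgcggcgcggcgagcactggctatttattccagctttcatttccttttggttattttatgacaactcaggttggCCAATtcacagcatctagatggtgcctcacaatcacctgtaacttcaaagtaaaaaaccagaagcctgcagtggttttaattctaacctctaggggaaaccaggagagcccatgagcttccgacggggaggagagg
Hmgcs1, chr13:119690101-119690350, plus strand: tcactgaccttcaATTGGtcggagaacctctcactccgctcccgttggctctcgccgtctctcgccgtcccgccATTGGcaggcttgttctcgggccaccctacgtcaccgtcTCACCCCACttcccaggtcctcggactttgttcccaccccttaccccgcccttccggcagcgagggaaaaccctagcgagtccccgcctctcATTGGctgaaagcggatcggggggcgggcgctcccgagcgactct
Cyp51, chr5:4104747-4104947, minus strand: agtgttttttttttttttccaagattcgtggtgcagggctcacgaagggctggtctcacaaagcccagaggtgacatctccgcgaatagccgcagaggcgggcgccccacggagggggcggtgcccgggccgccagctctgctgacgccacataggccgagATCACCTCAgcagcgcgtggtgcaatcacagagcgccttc
Srebf2, chr15:82147019-82147180, plus strand: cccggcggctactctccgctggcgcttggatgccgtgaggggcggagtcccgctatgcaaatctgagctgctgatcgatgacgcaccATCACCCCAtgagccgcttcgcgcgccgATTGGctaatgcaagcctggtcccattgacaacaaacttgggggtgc
In the window of Mvd the CCAAT boxes begin 60 and 27 bases before the start, and in that of Hmgcs1 the sterol element begins 137 bases before it. The bases after the start matched a transcript of the gene for 29 of the 32 windows, but not for Hmgcs1. Its window ends at 119690350 and the GENCODE gene starts at 119690379, so its position holds for the RefSeq start only. Motif matches are a description of these letters, and binding was not measured. A relation of the motifs to the fold changes was not tested.

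Among the regulators, Srebf2 (ENSMUSG00000022463.8; chromosome 15, plus strand, 82147181 to 82205379) had the most negative log2 fold change. It was at 162, 128, 176, 119.7 and 167 CPM in sgCon tumors 1 to 5 and at 130.1, 107, 123, 106 and 114 CPM in sgTaz tumors 1 to 5. The sgCon tumors split into 3 high and a low pair, and 3 of the sgTaz tumors lay below all of them. In log2 fold change Srebf2 was at -0.38 ± 0.12 (SE), a level 0.771 times that of sgCon tumors, with an adjusted p of 0.119 with edgeR. With the lymph node marker level as a covariate it was -0.26, with an unadjusted p of 0.186 by edgeR.

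Srebf1 was at 94.7, 102, 112, 116 and 102 CPM in sgCon tumors 1 to 5 and at 99.0, 81.4, 99.5, 91.5 and 98.1 CPM in sgTaz tumors 1 to 5. The groups overlapped through sgCon tumor 1, the lowest of its group, and the log2 fold change was -0.17 ± 0.08 (SE) with an adjusted p of 0.255. In RPKM, which divides by exon length, the ratio of Srebf2 to Srebf1 had a median of 1.23 in sgCon tumors (0.810 to 1.34) and of 0.973 in sgTaz tumors (0.906 to 1.03), so the ranges overlapped.

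Scap, the escort of both SREBPs, was at 66.7, 66.7, 71.5, 61.7 and 69.5 CPM in sgCon tumors 1 to 5 and at 80.9, 63.6, 72.5, 56.2 and 67.5 CPM in sgTaz tumors 1 to 5. The sgTaz tumors spread to both sides of the sgCon tumors, and the log2 fold change of 0.020 ± 0.10 (SE) turned negative without sgTaz tumor 1 (-0.048).

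Insig1, itself a target of the SREBPs, was at 52.5, 48.6, 43.7, 38.7 and 49.5 CPM in sgCon tumors 1 to 5 and at 51.0, 39.5, 65.5, 63.8 and 50.0 CPM in sgTaz tumors 1 to 5. Only sgTaz tumors 3 and 4 stood above all sgCon tumors, and the log2 fold change was 0.21 ± 0.14 (SE) with an adjusted p of 0.394. Insig2, which the SREBPs do not induce, was at 60.4, 62.0, 62.1, 67.0 and 64.6 CPM in sgCon tumors 1 to 5 and at 54.2, 61.9, 61.7, 61.5 and 50.8 CPM in sgTaz tumors 1 to 5. In this gene sgTaz tumors 1 and 5 lay below all sgCon tumors and the other sgTaz tumors within their range, with a log2 fold change of -0.12 ± 0.08 (SE) and an adjusted p of 0.361. Stard4, a carrier of cholesterol between membranes, had a log2 fold change of -0.018.

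All 6 genes of the steps from acetyl-CoA to palmitate had a positive log2 fold change, between 0.047 and 0.33, with a median of 0.22. Acss2 (ENSMUSG00000027605.18; chromosome 2, plus strand, 155517948 to 155585724), which makes acetyl-CoA from acetate, was at 15.2, 15.6, 16.8, 16.4 and 14.0 CPM in sgCon tumors 1 to 5. In sgTaz tumors 1 to 5 it was at 19.9, 15.4, 19.8, 19.8 and 18.9 CPM. Of the sgTaz tumors, 4 stood above all sgCon tumors and sgTaz tumor 2 lay among them. Acss2 had a log2 fold change of 0.27 ± 0.10 (SE), with an adjusted p of 0.176 with edgeR and 0.0388 with limma-voom, and 0.33 without sgTaz tumor 2. Across the 10 tumors, with group means taken off, Acss2 was lower where epithelial markers were higher, with a Pearson r of -0.827 (permutation p = 0.0129, adjusted 0.103) and a Spearman rho of -0.915 (permutation p = 0.0011, adjusted 0.0776). Leaving out the 2 tumors whose marker level was farthest from its median, r was -0.734, and none of the 80 relations computed for the 40 genes with epithelial and adipocyte markers passed an adjusted p below 0.05. With the epithelial level as a covariate the log2 fold change of Acss2 was 0.16, with an adjusted p of 0.396 by edgeR.

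Acaca (ENSMUSG00000020532.18; chromosome 11, plus strand, 84129672 to 84401651), acetyl-CoA carboxylase 1, makes the malonyl-CoA for synthesis. It was at 84.1, 69.4, 50.4, 62.3 and 65.4 CPM in sgCon tumors 1 to 5 and at 76.9, 63.1, 89.6, 85.1 and 102 CPM in sgTaz tumors 1 to 5. The 3 sgTaz tumors above all sgCon tumors, numbers 3 to 5, were the same that had the most adipocyte markers. The log2 fold change was 0.33 ± 0.15 (SE), with an adjusted p of 0.223, and 0.26 with the adipocyte level as a covariate. Its unadjusted p was below 0.05 in 2 of 10 fits that left out a tumor.

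Fasn, fatty acid synthase, was at 371, 249, 188, 209.7 and 279 CPM in sgCon tumors 1 to 5 and at 259, 252, 367, 305 and 352 CPM in sgTaz tumors 1 to 5. Again sgTaz tumors 3 to 5 were the highest of their group, but sgCon tumor 1 was above them. For Fasn the log2 fold change was 0.24 ± 0.18 (SE), with an adjusted p of 0.448, and 0.41 without sgCon tumor 1. Acly, which makes acetyl-CoA from citrate, had a log2 fold change of 0.13, Me1, a source of NADPH, of 0.19, and Acacb, the acetyl-CoA carboxylase tied to fat oxidation, of 0.047, and none had an unadjusted p below 0.05.

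Among desaturases and elongases, Scd1 (ENSMUSG00000037071.3; chromosome 19, minus strand, 44394455 to 44407879), a stearoyl-CoA desaturase abundant in fat tissue, had the most positive log2 fold change of the 40 genes and the widest spread. It was at 146, 169, 184, 62.2 and 157 CPM in sgCon tumors 1 to 5 and at 48.8, 21.4, 357, 329 and 427 CPM in sgTaz tumors 1 to 5. The sgTaz tumors fell on both sides of the sgCon tumors, with tumors 1 and 2 below all of them and tumors 3 to 5 above all of them, which is the split of the adipocyte markers. The log2 fold change was 0.72 ± 0.66 (SE), with an adjusted p of 0.551, and it was -0.46 ± 0.41 (SE) with the adipocyte level as a covariate. Within the sgCon group Scd1 did not follow the markers in this way, since sgCon tumor 3, with the fewest adipocyte transcripts of its group, had the most Scd1. With group means taken off, Scd1 had a Pearson r of 0.903 with adipocyte markers over the 10 tumors (permutation p = 0.0333, adjusted 0.19). Without the 2 tumors whose marker level was farthest from its median, r was 0.371. For Acaca r was 0.793 (permutation p = 0.00087, adjusted 0.0696), and 0.806 without those 2 tumors. For Ebp it was negative, at -0.732 (permutation p = 0.0126, adjusted 0.103), and -0.520 without those 2 tumors. The other sterol enzymes took either sign, from -0.458 for Fdft1 (permutation p = 0.222) to 0.740 for Hsd17b7 (permutation p = 0.00744, adjusted 0.0992). The sgTaz tumors fell into separate sets by adipocyte markers, and no set holds enough tumors for a test within it.

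Scd2, its paralog and the highest of the 40 genes per exon length, ranged from 424 to 647 CPM in sgCon tumors and from 463 to 523 CPM in sgTaz tumors, with a log2 fold change of -0.11. The ratio of Scd2 to Scd1 in RPKM was 2.06 to 8.65 in sgCon tumors and 0.972 to 20.3 in sgTaz tumors. Elovl6, which elongates palmitate, had a log2 fold change of 0.22, Elovl1 of 0.042, Elovl5 of 0.025, and the desaturases Fads1 of 0.11 and Fads2 of -0.087. None of the 7 genes of desaturation and elongation had an unadjusted p below 0.05 with edgeR.

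**Figure D3:**
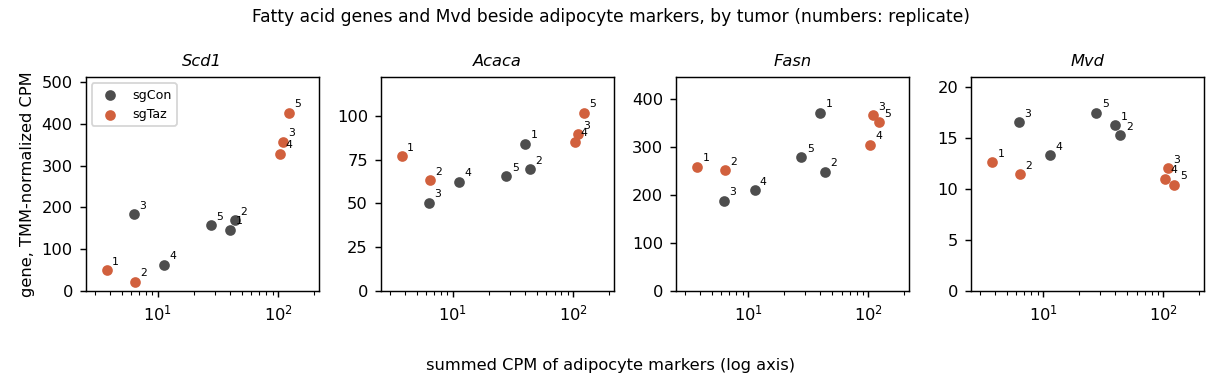
CPM of Scd1, Acaca, Fasn and Mvd (vertical axes, from 0) against the summed CPM of the adipocyte markers (horizontal axes, log scale) in each tumor, with sgCon in grey, sgTaz in orange and replicate numbers beside the points. For Scd1 and Acaca, sgTaz tumors 3 to 5, at 104 to 123 CPM of markers, lie above all other tumors, while for Mvd all 5 sgTaz tumors lie below the sgCon tumors at both ends of the marker range.

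The mean log2 CPM over the 13 fatty acid enzymes was 6.46, 6.35 and 6.44 in sgTaz tumors 3 to 5, and 6.19 and 5.84 in sgTaz tumors 1 and 2. In sgCon tumors it was between 6.02 and 6.30, inside the range of the sgTaz tumors. Mean log2 CPM over the 19 sterol enzymes was 5.30, 4.96, 4.86, 4.82 and 5.10 in sgCon tumors 1 to 5 and 4.90, 4.78, 4.94, 4.81 and 4.83 in sgTaz tumors 1 to 5. The sgCon tumors were the more variable group here, with an SD of 0.194 beside 0.0637, and sgCon tumors 1, 2 and 5 lay above all sgTaz tumors. With the adipocyte level as a covariate, the median log2 fold change was -0.19 for sterol enzymes and 0.074 for fatty acid enzymes. The part of the adipocyte, epithelial and lymph node cells in these differences was not tested beyond these fits.

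**Figure D4:**
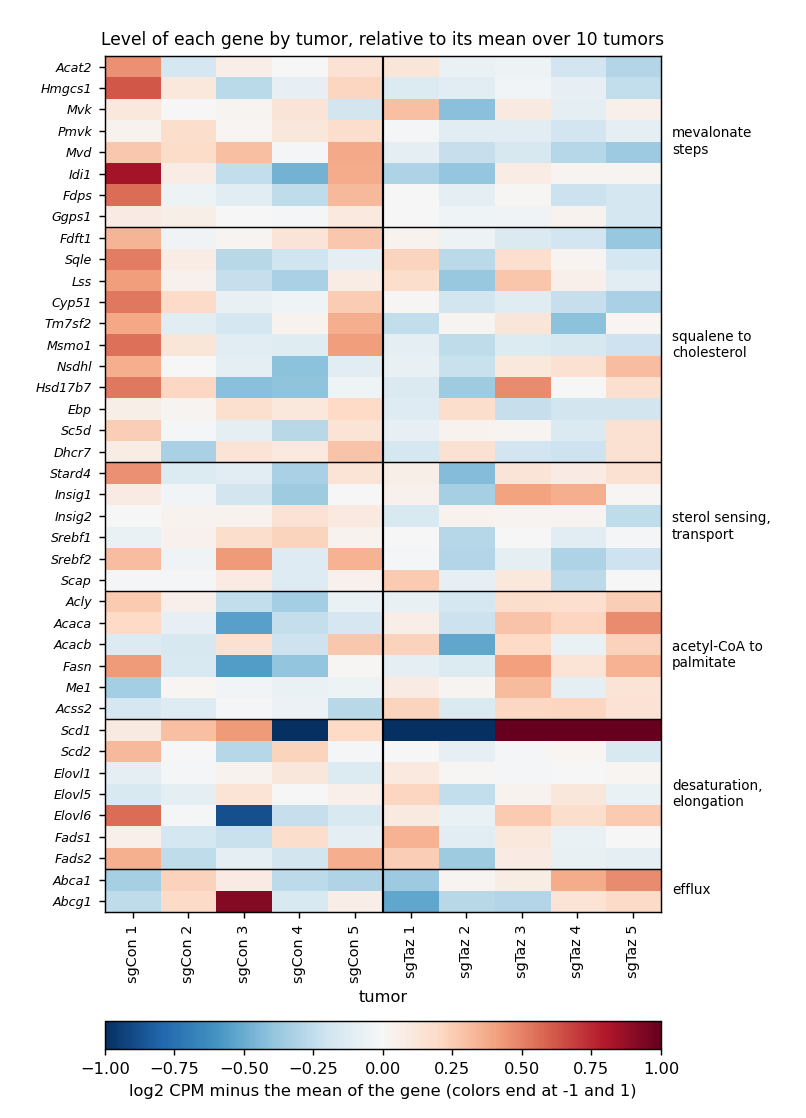
Log2 CPM of each of the 40 genes in each tumor minus the mean of the gene over the 10 tumors, with red above and blue below the mean and colors ending at -1 and 1. The column of sgCon tumor 1 is red through most of the sterol rows, and Scd1 is dark blue in sgTaz tumors 1 and 2 and dark red in sgTaz tumors 3 to 5.

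The efflux pumps, which are targets of the liver X receptors rather than of the SREBPs, had log2 fold changes of opposite sign, with overlapping groups in both. Abca1, which loads cholesterol onto apolipoprotein A-I, was at 118, 174, 158, 124 and 121 CPM in sgCon tumors 1 to 5 and at 116, 151, 156, 192 and 206 CPM in sgTaz tumors 1 to 5. Only sgTaz tumors 4 and 5 were above all sgCon tumors, and the log2 fold change was 0.24 ± 0.16 (SE) with an adjusted p of 0.403. Abcg1, which exports sterols to lipoproteins, ranged from 35.9 to 81.5 CPM in sgCon tumors and from 29.9 to 49.0 CPM in sgTaz tumors, with a log2 fold change of -0.35 ± 0.22 (SE) that was 0.17 with the lymph node marker level as a covariate. Both pumps are also expressed by macrophages.

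Per exon length, Scd2 led with a mean of 98.6 RPKM in sgCon tumors and 91.5 RPKM in sgTaz tumors, followed by Acly (38.9 and 42.6 RPKM), while Acacb was lowest (0.870 and 0.898 RPKM). In sgTaz tumors Scd1 had the second highest mean, 48.3 RPKM, and in sgCon tumors it was at 29.3 RPKM. Mvd, at 8.48 RPKM in sgCon tumors and 6.18 RPKM in sgTaz tumors, lay below its neighbour Pmvk at 14.6 and 12.6 RPKM.

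**Figure D5:**
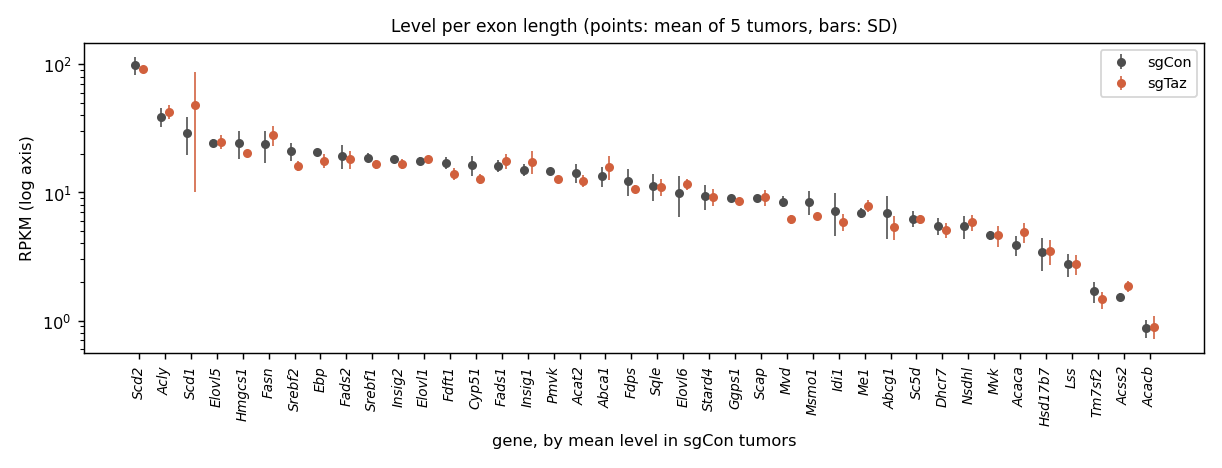
Mean RPKM of the 40 genes (log axis) in sgCon tumors in grey and sgTaz tumors in orange, with bars for the SD over 5 tumors and genes ordered by their mean in sgCon tumors. The bars of the groups lie close together for most genes, and Scd1 in sgTaz tumors has the longest bar.

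Genes around these routes were taken from further lists. In the isoprenoid list, whose members use the products of the mevalonate steps, 3 of 10 genes were lower and 0 higher at an unadjusted p below 0.05 with edgeR, with a median log2 fold change of -0.19, beside the 11.9% lower and 9.86% higher of all genes. The 3 were the prenyltransferase subunits Fnta, Rabggta and Rabggtb, with overlapping groups and log2 fold changes between -0.34 and -0.26. In the list of esterification, 3 of 11 were lower and 1 higher, to be read against the same shares. Dgat1, which makes triglyceride, ranged from 18.5 to 22.5 CPM in sgCon tumors and from 12.5 to 16.5 CPM in sgTaz tumors, without overlap, with a log2 fold change of -0.43 ± 0.10 (SE) and an adjusted p of 0.096. Soat2, which esterifies cholesterol, ranged from 2.04 to 2.66 CPM in sgCon tumors and from 0.890 to 1.87 CPM in sgTaz tumors, with a log2 fold change of -0.77 ± 0.23 (SE) and an adjusted p of 0.117.

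Of the partners of the elongases, 2 of 9 tested were higher and 1 lower, again beside 9.86% and 11.9% of all genes. Hacd4, a dehydratase of the elongation cycle, ranged from 13.4 to 23.1 CPM in sgCon tumors and from 25.0 to 32.1 CPM in sgTaz tumors, with a log2 fold change of 0.53 ± 0.14 (SE) and an adjusted p of 0.0999. Hsd17b12, the ketoreductase of the same cycle, had a log2 fold change of 0.25 ± 0.08 (SE) without overlap, with an adjusted p of 0.128. The gene that was lower in this list was Tecr, at -0.21 ± 0.08 (SE) with overlapping groups and an adjusted p of 0.186 by edgeR. Of the genes that process SREBPs or sense sterols, 1 of 14 was higher and 0 lower. In the list of substrate supply and mitochondrial fatty acid synthesis 2 of 10 were higher, and in that of liver X receptors and their targets 1 of 6, where 9.86% of all genes were higher. None of the genes tested in these lists passed an adjusted p below 0.05 with edgeR.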

How the data were processed

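RNA of whole tumors (5 sgCon, 5 sgTaz) was sequenced. According to the methods, STAR (2-pass, mm10, GENCODE) aligned the reads, RSeQC checked the alignments, and the authors obtained gene counts from featureCounts of Subread. The submitters' processing notes name CASAVA, STAR, Subread and GRCm38, without versions. The deposited values are raw counts of the authors for 17864 genes, not normalized. The table has 5 further columns, which were not used. Groups were taken from the sample labels.

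Of 17864 identifiers, 17860 were found in GENCODE M21, which gave symbols, places, GC content and exon lengths. In R 4.3.3, filterByExpr kept 14816 genes and 3048 fell below it. All 40 genes of the pathway passed, with at least 63 counts in each tumor. Counts were normalized by TMM and tested with edgeR 4.0.16 (glmQLFit, glmQLFTest) with Benjamini-Hochberg adjustment at 0.05. That test gives no SE, so the SE printed was the absolute log2 fold change divided by the square root of its F statistic. DESeq2 1.42.0 and limma 3.58.1 (voom with sample quality weights) were alternatives, beside RLE and upper-quartile normalization, no filter, at least 10 counts in every tumor, the replicate number as a block, offsets for GC content and length, marker levels as covariates, and each tumor left out in turn. Marker levels and log2 CPM used a prior count of 2 and were compared with exact two-sided permutation tests. Relations used 100000 permutations within groups. Figures and permutations were made in Python 3.11.15 (matplotlib 3.10.9, pandas 2.3.3, scipy 1.17.1, numpy 2.4.6). The fits were also run on simulated counts. Those had the same dispersion for all genes and larger fold changes than any of the 40 genes, so they do not show accuracy at the changes seen here. Between tumors of a group, chi-square per degree of freedom was at least 6.56, so no pair agreed within sampling noise. Totals per tumor were 12185383 to 19595821 counts, which covers counting error only.

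The rule for the 40 genes names pathway members and uses no value, but this set of genes, the lists, the tests and the alternatives were chosen with earlier results of these data known. Values in every tumor are given for genes with an unadjusted p below 0.05 or no overlap between groups, for Srebf1, Srebf2, Scap, Insig1 and Insig2, and for Hmgcs1, Sqle, Fasn, Acaca, Scd1 and Abca1. Genes around the pathway are named where their unadjusted p was below 0.05 and the groups did not overlap, at most 3 per list, except for 1 list that is not reported here. The prenyltransferase subunits and Tecr were named after their values had been seen.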

Additional observations from a re-analysis of the deposited data

Results flagged for a closer look

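In 98 groups of 5 values (the 40 genes, Wwtr1 and 8 marker lists in each of the groups of tumors), a tumor far from the other 4 was found in 6, where chance gives about 4.9. In sgTaz tumor 2, Ebp was high at 5.63 log2 CPM (the others between 5.23 and 5.33), Stard4 was low at 5.25 (5.74 to 5.84), and Acss2 was low at 3.96 (4.25 to 4.33). In sgCon tumor 4, Scd1 was low at 5.96 log2 CPM (7.19 to 7.52), and in sgCon tumor 1, Me1 was low at 4.49 (4.76 to 4.86). Lymph node stroma markers were high in sgTaz tumor 5, with a mean log2 CPM of 5.19 beside -3.01 to -1.24 in the other sgTaz tumors.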

How the results depend on the processing

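Replicate numbers did not pair the tumors: deviations of same-numbered tumors correlated at -0.150, -0.243, -0.049, 0.093 and 0.221 for numbers 1 to 5. With the replicate block 0 of the 40 genes were higher and 5 lower at an unadjusted p below 0.05. Of the 14816 genes tested, 1064 were higher and 1398 lower at that threshold with the block (2462 in all). None of them passed the adjusted threshold with edgeR.

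The count of genes past the adjusted threshold was 1 with edgeR, 1081 with DESeq2 and 1546 with limma-voom. It was 0 without a filter, with the offsets for GC content and length alone or with the block, and with lymph node or epithelial markers as a covariate, 4 with adipocyte markers, 5 with at least 10 counts in every tumor, and 0 to 172 with a tumor left out, 172 being without sgTaz tumor 5 and 75 without sgTaz tumor 2. With lymph node markers 1437 genes had an unadjusted p below 0.05, beside 3226.

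Of the 40 genes, 1 passed the adjusted threshold with DESeq2 and 6 with limma-voom, and 0 in each other fit. Wwtr1 passed it with DESeq2 (-0.58) and limma-voom (-0.59). At an unadjusted p below 0.05, 4 of the 40 were lower with the offsets, 3 with block and offsets and 4 with lymph node markers. Of the 14816 genes tested, 1233, 1004 and 747 were lower in these fits, beside 1765 in the main fit. Of the 40, 1 was higher with upper-quartile normalization, block and offsets, or epithelial markers, where 1397, 1614 and 1335 of all genes were. With a tumor left out, 5 to 8 were lower and 0 to 4 higher: 4 without sgCon tumor 1, 3 without sgTaz tumor 2, 0 without sgCon tumor 5 or sgTaz tumor 3, and 1 without any of the others. Over all genes, 1268 to 2022 were lower and 1032 to 1669 higher with a tumor left out. Acss2 kept its unadjusted p below 0.05 in 6 of these 10 fits. The median of fatty acid enzymes was 0.27 with lymph node markers. The cause of these shifts was not tested.

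The sign of the log2 fold change turned in at least 1 of 22 other fits for 14 of the 40 genes, of which 0 had an unadjusted p below 0.05 with edgeR: Mvk, Sqle, Lss, Hsd17b7, Sc5d, Dhcr7, Stard4, Scap, Acacb, Scd1, Elovl5, Fads1, Fads2 and Abcg1. It turned for Sqle without a filter (0.0045), with block and offsets (0.0072), with epithelial markers (0.019) and with a tumor left out (-0.083 to 0.13), for Scap with epithelial markers (-0.042) and with a tumor left out (-0.048 to 0.083), and for Scd1 with adipocyte markers (-0.46). With a tumor left out, the difference of mammary secretory markers (1 of 6 tested, -0.046) ran from -0.42 to 0.32 and that of skeletal muscle markers (2 of 5 tested, -0.11) from -0.34 to 0.12. Proliferation markers differed by 0.20. Without sgTaz tumor 5 the exact permutation test of B cell markers (-5.20) and of lymph node stroma markers (-6.70) had an adjusted p of 0.0317.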
